A study of Ginkgo biloba with 2 samples.

Results

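Of 2713 genes of Ginkgo biloba that the authors' table predicts as targets of leaf miRNAs, 132 encode a protein whose closest described match is a transcription factor. They were chosen by words in the match description, such as Myb, NAC domain, squamosa, homeobox, WRKY or transcription factor, and no read count entered the choice. Factors described in other words were not counted, so the other target genes may hold some. The 132 genes make up 4.87% of all predicted target genes and 6.50% of the 2031 target genes with a protein match. The authors' deposited table gives each match an E-value, the number of equally good matches a search would return by chance. Over the 132 genes it ran from 0 to 9.4e-06 with a median of 2.35e-48, so the class names below rest on similarity to proteins of other species. For 100 of the genes the match was a protein of Arabidopsis thaliana, for 22 one of rice and for 10 one of another organism.

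The miRNAs were counted in 2 small RNA libraries, 1 from normal green leaves of an adult tree and 1 from yellow mutant leaves. The sample label calls the mutant leaves yellow while the collection protocol calls them striped in yellow and green, so the yellow library may hold green tissue. The protocol also names cambium as the source of the RNA although both samples are labelled leaf. Pooling of leaves or branches was not given in the sources used here. Counts summed to 2084893 reads for green and 2793966 for yellow leaves. Since each leaf type has a single library, differences between them have no replicate check and no test. A target here is a prediction, and the abundance of the target mRNAs was not measured.

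Plant miRNAs pair closely with their target mRNAs and direct their cleavage or block their translation. Many of the miRNA families shared across land plants are known for targeting transcription factors, among them miR156 for SPL, miR159 for GAMYB, miR160 and miR167 for ARF, miR164 for NAC and miR166 for class III HD-ZIP genes. In leaves these factors act in the juvenile or adult phase, the upper and lower leaf faces, the outline of the blade and the response to auxin. Some other MYB factors govern the output of phenolic pigments.

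The 132 genes were listed under 172 miRNA names, in 562 pairs of a gene and a name. Of the names, 136 carry miRBase names of other plants in 30 numbered families, where the prefix gives the species (ath for Arabidopsis thaliana, pta for Pinus taeda). The other 36 carry only a number from the authors (novel_1 and so on) and are called numbered names. The median was 1 name per gene both for transcription factors and for the other target genes, and 72 of the 132, or 54.5%, had a single name, against 75.2% of the others. 31 of the 132 genes, or 23.5%, had 5 or more names, against 3.72% of the other 2581 target genes. 20 genes, or 15.2%, had 10 or more names, against 0.465% of the others. Only 28 of the 132, or 21.2%, were listed under numbered names alone, against 52.6% of the others. Related names may share reads, so several names for a gene are not several independent miRNAs.

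The largest class was MYB, with 29 genes, followed by bHLH with 22, AP2/ERF with 12, homeobox proteins outside HD-ZIP with 9 and HD-ZIP with 8. SPL, ARF and WRKY had 7 genes each, TCP, bZIP and trihelix 5 each, NF-Y 4, NAC 3 and GRAS 1. The remaining 8 genes were 2 GATA and 2 B3 factors and 1 each of the MADS-box, heat stress, bromodomain and general factors. For 9 of the classes a miRNA family is known in plants to target them, and in 8 of these at least 1 gene was listed under it. 27 of 29 MYB genes were listed under miR159, miR319, miR828 or miR858, families that together list 5.31% of all target genes. So were 6 of 7 ARF genes under miR160 or miR167 (1.29% of all), 5 of 7 SPL genes under miR156, miR157 or miR529 (3.46% with miR535), and 5 of 8 HD-ZIP genes under miR165 or miR166 (2.17%). The single GRAS gene was listed under miR171 (0.590% of all, with miR170), 2 of 3 NAC genes under miR164 (0.405%), 2 of 4 NF-Y genes under miR169 (0.516%), and 2 of 5 TCP genes under miR319 (1.62%). None of the 12 AP2/ERF genes was listed under miR172, the family known for AP2 genes in Arabidopsis, which listed 2.14% of all target genes, so that a count of 0 lies near that share. All 12 descriptions held the words ethylene-responsive transcription factor. An AP2 gene described in other words was not counted, so the 0 does not cover all AP2 genes. The grid of classes against families shows these pairs, but some families crossed classes. Names of miR319 listed, among others, 4 MYB, 2 AP2/ERF and 2 TCP genes, and names of miR159 listed 4 MYB and 3 AP2/ERF genes. The bHLH genes stood mainly under miR5658, miR1030 and numbered names.

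**Figure D1:**
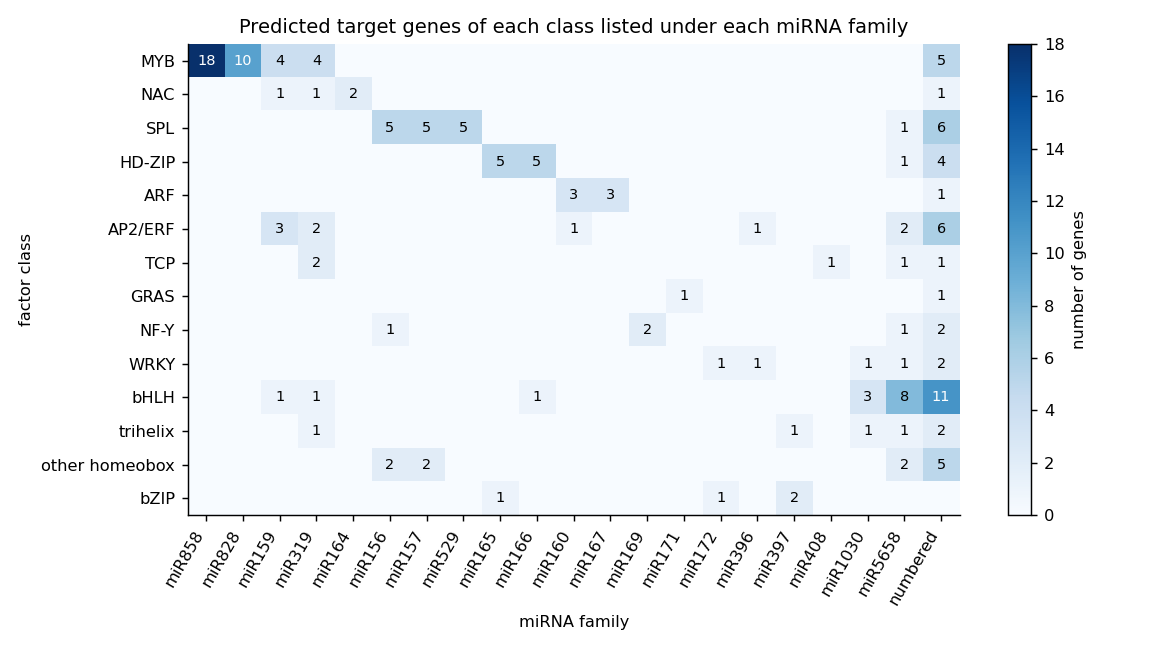
Number of predicted target genes of selected transcription factor classes (rows) listed under selected miRNA families (columns, numbered names in the last). Darker cells hold more genes and empty cells 0, and other classes and families are not drawn. The MYB row holds 18 genes under miR858 and 10 under miR828, and the HD-ZIP row 5 under miR165 and 5 under miR166.

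Some families listed few genes other than transcription factors. The 18 MYB genes of miR858 were 64.3% of its 28 predicted targets, and the 10 of miR828 were 76.9% of its 13. For miR166 the share was 13.95%, for miR159 12.3% and for miR164 18.2%. Numbered names listed 1581 target genes, of which 51, or 3.23%, were transcription factors.

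Reads limit what the list can show. A name was called lower or higher in the yellow library by a rule of size, which asked for 20 or more reads over both libraries, a ratio of yellow over green CPM (reads scaled to the column total) of 2 or more in either direction, and a 95% exact binomial interval of that ratio without 1 in it. The intervals cover counting error only, and, with no molecular identifiers, reads cannot be taken as independent molecules. Of the 172 names, 109 had at least 20 reads, and 86 of the 132 genes were listed under at least 1 of them. The other 46 genes had only names with fewer reads. For 20 of these the single name was ath-miR5658, which had 2 green and 0 yellow reads. A count of 0 allows up to 1.07 CPM there, and the 2 green reads lie under the corresponding limit of 1.44 CPM. ath-miR5658 listed 21 of the 132 genes, the most of any name, and 138 target genes in all. Its transcription factor genes included both MYC2 matches, regulators of jasmonate response, and both FAMA matches, regulators of guard cell formation.

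Among the 109 names with enough reads, 31 were lower and 8 higher in the yellow library. That is 28.4% lower and 7.34% higher, beside 24.8% lower and 12.1% higher over all 306 names with at least 20 reads, so the share of lower names lay near that of all names. The median log2 ratio was -0.48 for the 109 names and -0.43 for all 306. Ratios scaled by the column total are to be read against that shift. With edgeR TMM factors every log2 ratio rose by 0.47, and 18 of the 109 names were lower and 17 higher, or 16.5% and 15.6%, beside 16.3% and 20.9% of all names. With DESeq2 median-of-ratios factors it rose by 0.42, and 20 were lower and 17 higher, beside 17.6% and 19.6% of all names. The 18 names lower with TMM were lower with every one of the 4 scalings tried, 16.5% beside the 16.3% of all names lower with TMM. The 8 names higher when scaled by the total, 7.34% beside 12.1% of all names, stayed higher.

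**Figure D2:**
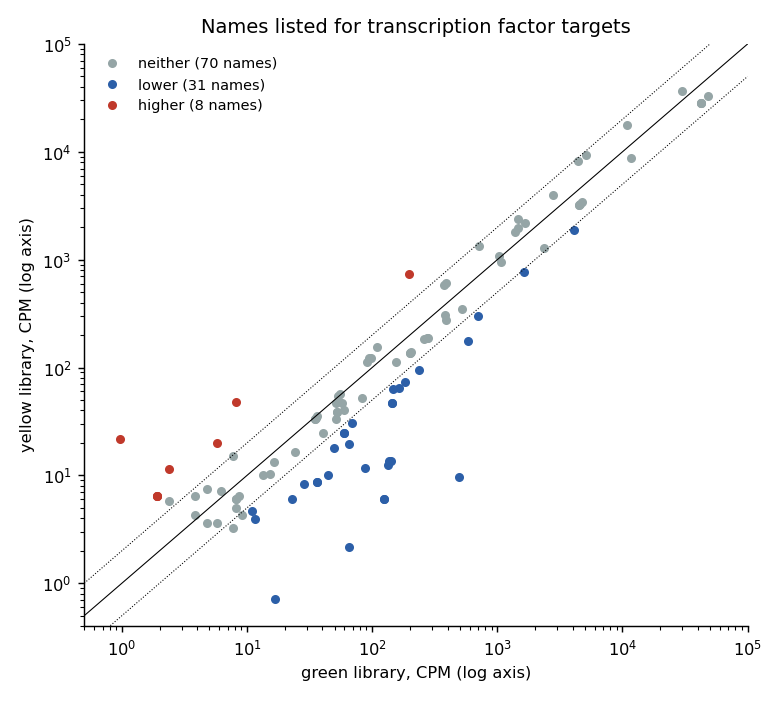
CPM in the green library (x, log axis) against CPM in the yellow library (y, log axis) for the 109 names with at least 20 reads that are listed for transcription factor targets, scaled by the column total. Each point is 1 name, the solid line marks equal CPM and the dotted lines a 2-fold difference, with 31 names lower, 8 higher and 70 neither.

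Counted by gene, 46 of the 86 genes, or 53.5%, were listed under at least 1 lower name, beside 28.6% of the 1599 target genes with a name of at least 20 reads. Under at least 1 higher name stood 10 of the 86, or 11.6%, beside 17.3%. 5 genes had names of both kinds and 35 had neither. The share under a lower name was 31.4% with TMM, beside 18.1%, and 33.7% with median of ratios, beside 19.6%. Under a higher name stood 26.7% with either scaling, beside 31.4% of all target genes with TMM and 31.2% with median of ratios. Many of these genes shared a few names. Names of miR858 accounted for 14 of the 46 genes, and without its names 33 of 76 genes, or 43.4%, were listed under a lower name, beside 27.6% of all target genes. With TMM and without miR858 names the share was 17.1%, beside 16.9%, and with median of ratios 19.7%, beside 18.5%, so under those scalings it lay near that of all target genes. A gene with many names also has more chances of holding a lower one. Among the 38 genes with a single name of at least 20 reads, 11, or 28.9%, had a lower one, beside 22.6% of 1241 such target genes. Without miR858 names the share was 9 of 39, or 23.1%, beside 22.1% of 1237, so it lay near that of all target genes.

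**Figure D3:**
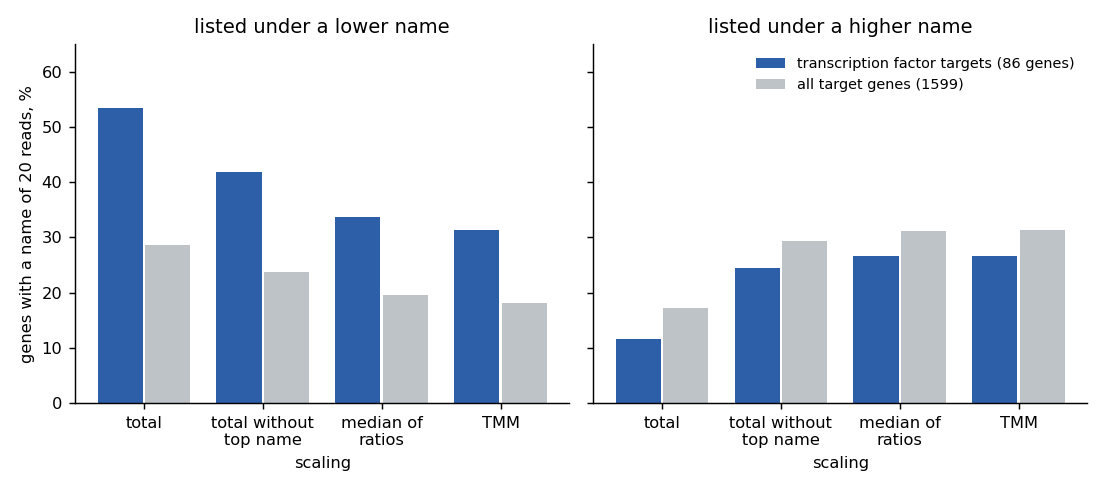
Share of genes (%) listed under at least 1 lower name (left) or at least 1 higher name (right) in the yellow library, among genes with a name of at least 20 reads, for the 86 transcription factor targets and for all 1599 target genes under 4 scalings. The share under a lower name falls from 53.5% with the column total to 31.4% with TMM.

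Of the 26 MYB genes with enough reads, 19 were listed under a lower name and none under a higher one, beside 28.6% and 17.3% of all target genes. With TMM 15 had a lower and 4 a higher name, beside 18.1% and 31.4%. In either case 14 of the genes under a lower name stood under ath-miR858a or ath-miR858b. ath-miR858a had 261 green and 17 yellow reads, 125 and 6.08 CPM, and was 20.6-fold lower (interval 12.6 to 35.9). ath-miR858b, with 260 and 17 reads, can hold the same reads and was 20.5-fold lower (12.55 to 35.7). ppe-miR858 and cme-miR858 had 3 green and 0 yellow reads. These names listed 18 MYB genes, of which 14 stood under ath-miR858a or ath-miR858b and 4 under the other names only, and ath-miR858a and ath-miR858b were lower with any scaling.

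The 18 miR858 genes matched MYB proteins of varied roles, of which 9 genes are given here and were chosen after their values were seen. Gb_18153 and Gb_19333 matched the transcription repressor MYB4, which restrains phenylpropanoid genes in Arabidopsis. Gb_03400 matched a Myb-related protein of snapdragon known as a repressor of phenolic synthesis, and Gb_09986 and Gb_23187 matched another of the same plant, an activator of phenylpropanoid genes in its flowers. Gb_16000 matched TT2, an activator of proanthocyanidin synthesis in the seed coat. Gb_15814 and Gb_19348 matched MYB24 and MYB21, which act in stamen development under jasmonate. Gb_03227 matched RAX3, a regulator of axillary meristems.

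10 MYB genes stood under vvi-miR828a, 7 of them with a match to MYB5, MYB6 or MYB12 and no other name. MYB12 activates flavonol synthesis and MYB5 acts in the seed coat and in trichomes of Arabidopsis. vvi-miR828a had 8 green and 12 yellow reads, a ratio of 1.12 (0.421 to 3.16). At these counts a 2-fold difference was not detectable. Gb_15993, Gb_16000 and Gb_22883 were listed under both miR828 and miR858. Of the 2 MYB genes outside the known families, Gb_29789 (match RAX3) stood under gma-miR6300, with 183 and 33 reads and 7.43-fold lower (5.11 to 11.1). Gb_33428 (match MYB86) stood under novel_292, with 23 and 13 reads and 2.37-fold lower (1.15 to 5.10), a call lost with TMM and median of ratios.

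4 genes matched GAMYB, the gibberellin-responsive MYB of cereal seeds. Gb_34464 had 28 names and Gb_11536 and Gb_23921 had 26 each, more than any other of the 132 genes, while Gb_09998 had 13. Their names belonged mainly to miR159 and miR319. pta-miR159a, the most-read, had 10683 green and 25949 yellow reads, a ratio of 1.81 (1.77 to 1.85). mtr-miR319a-3p, also listed for all 4 genes, had 8610 and 5287 reads and was 2.18-fold lower (2.11 to 2.26). ppt-miR319a, with 1452 and 840 reads, was 2.32-fold lower (2.13 to 2.525). With TMM mtr-miR319a-3p had a ratio of 0.634 and was not called, while pta-miR159a had one of 2.51 and was called higher. Each GAMYB gene was thus listed under lower names when scaled by the total and under higher names with TMM. Gb_09998 kept lower names under TMM too, through ath-miR858a and ath-miR858b.

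Of the 17 miR159 names with enough reads, 12 had a ratio above 1, with a range from 0.634 (aqc-miR159) to 1.81. None was called when scaled by the total, beside 24.8% lower and 12.1% higher of all names. All 7 miR319 names with enough reads had a ratio below 1 when scaled by the total, from 0.432 to 0.721. 3 of them were called lower, beside 24.8% of all names, and none with any of the 3 other scalings. With TMM and with median of ratios 4 miR159 names were called higher, beside 20.9% and 19.6% of all names, and 1 was with the total without the most abundant name. novel_31, listed for 3 GAMYB genes, held 5769 green and 11035 yellow reads, a ratio of 1.43 (1.38 to 1.47). novel_68, listed for these and other genes, had 0 and 2 reads. Which of these names binds a given GAMYB mRNA was not measured.

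**Figure D4:**
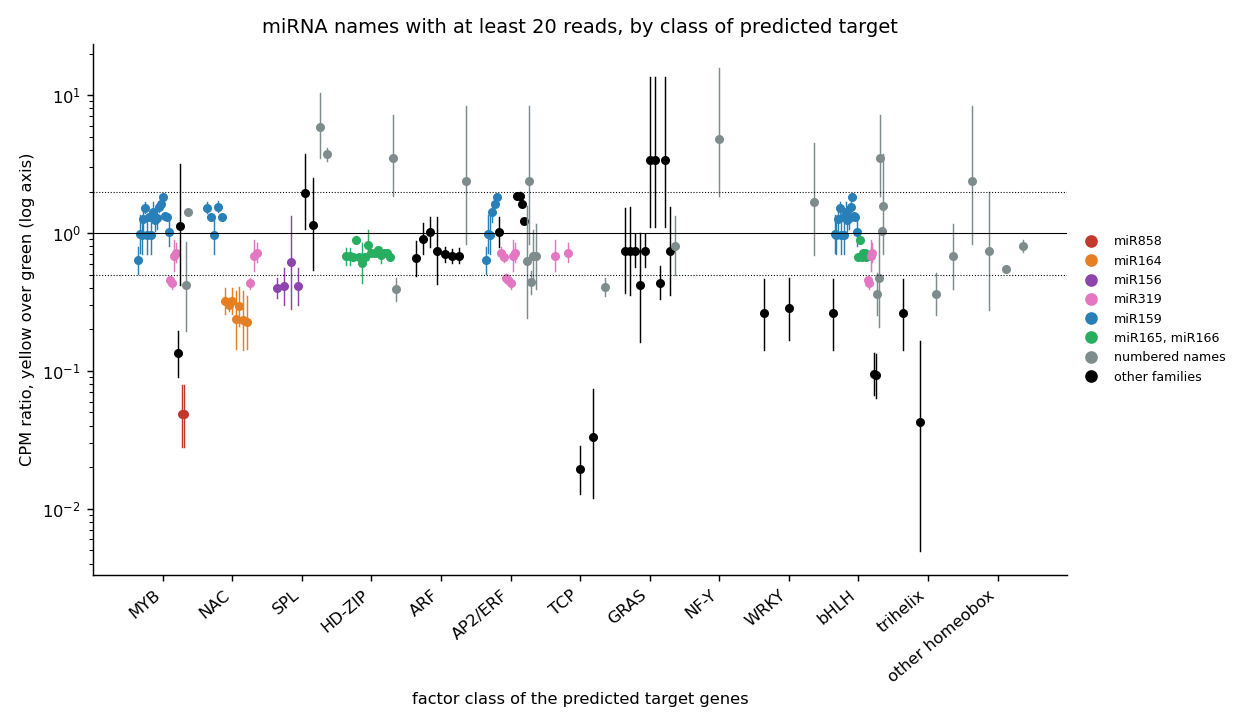
Ratio of yellow over green CPM (log axis) for names with at least 20 reads, placed under each of 13 factor classes whose genes they are listed for, scaled by the column total. Points are names coloured by miRNA family, vertical lines are 95% exact intervals of counting error, and the horizontal lines mark ratios of 1, 2 and 0.5. The miR858 points lie near 0.049 and the miR164 points between 0.227 and 0.322.

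In the NAC class, the genes of miR164 had lower names alone. Gb_13930 and Gb_35048 matched NAC domain-containing protein 100, a member of the NAC group that miR164 targets in Arabidopsis and that shapes organ boundaries. Both stood under the same 7 miR164 names and under no other. All 7 were lower with any of the 4 scalings, beside 24.8% of all names when scaled by the total and 16.3% with TMM. These names may hold the same reads, so they are not 7 separate observations. ath-miR164c-5p had 1207 green and 490 yellow reads and was 3.30-fold lower (2.97 to 3.67). ath-miR164a and gma-miR164b, with equal counts of 301 and 130, were 3.10-fold lower (2.52 to 3.84). zma-miR164h-5p, with 92 and 28 reads, was 4.40-fold lower (2.86 to 6.98). The third NAC gene, Gb_37444 (match ONAC010), was listed under miR159 and miR319 names and not under miR164. Its most-read name was sof-miR159c, with 3497 and 6127 reads and a ratio of 1.31 (1.25 to 1.36), and its only lower name was ppt-miR319a, a call made with the column total alone. With TMM the gene had no lower name and 2 higher ones.

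In the SPL class, some of whose proteins promote the adult phase and are restrained by miR156, names went both ways on the same genes. ath-miR156a-5p had 379 green and 203 yellow reads and was 2.50-fold lower (2.10 to 2.98). cca-miR156b and stu-miR156f-5p, with equal counts of 125 and 69, were 2.43-fold lower (1.795 to 3.31). These 3 names were listed for Gb_02576, Gb_23724, Gb_26599, Gb_27198 and Gb_32703, and were called with neither TMM nor median of ratios. 4 of the 5 genes, all but Gb_02576, were also listed under novel_116, which had 17 green and 133 yellow reads and a ratio of 5.84 (3.51 to 10.3). ppt-miR529e was listed for the same 4 genes. The SPL match of Gb_23724 had the highest E-value of the class, 8.49e-09 in the authors' deposited table.

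When scaled by the total the 2 miR529 names with enough reads had ratios above 1, and the other scalings raise every ratio. ppt-miR529e, counting 16 and 42 reads, stood at a ratio of 1.96 (1.08 to 3.73) and passed the limit with TMM, while zma-miR529-5p, with 13 and 20, had one of 1.15 (0.543 to 2.51). Gb_00228 (match SPL1) stood outside this group under a single name. That name, novel_57, had 414 green and 2066 yellow reads, a ratio of 3.72 (3.35 to 4.15). Called higher with the total, it stays so under the other scalings, which only raise ratios. It listed 43 target genes in all.

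5 of the 8 HD-ZIP genes stood under the names with the most reads among the 172. Gb_02083, Gb_10259 and Gb_18245 matched HOX32 of rice, and Gb_18240 and Gb_22761 matched ATHB-15 of Arabidopsis, class III proteins that act in leaf polarity and vascular tissue. Each was listed under 16 names of miR165 and miR166. gma-miR166u had 101288 green and 91410 yellow reads, 48582 and 32717 CPM, a ratio of 0.673 (0.667 to 0.679). ath-miR166a-3p, with 88823 and 80073 reads, had the same ratio. The 15 names of miR165 and miR166 with enough reads ranged from 0.606 to 0.895, and none was called under any scaling. These names may share reads. Of all names 24.8% were lower and 12.1% higher when scaled by the total, and 16.3% and 20.9% with TMM. With TMM gma-miR166u stood at 0.931 and cme-miR166i at 1.24, so the family's names lay on both sides of 1. Gb_18240 was also listed under novel_84, with 344 and 180 reads and 2.56-fold lower (2.13 to 3.08), called with neither TMM nor median of ratios. The HD-ZIP genes outside class III had other names. Gb_08575 (match ATHB-13) stood under novel_213, with 12 and 56 reads and a ratio of 3.48 (1.845 to 7.14).

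None of the 8 names with enough reads listed for ARF genes was called when scaled by the total. Of all names 24.8% were lower and 12.1% higher. ARF proteins bind auxin response elements. Gb_25507, Gb_33804 and Gb_39786 matched ARF18 of rice and stood under 5 miR160 names. gma-miR160b had 111 and 152 reads, a ratio of 1.02 (0.795 to 1.32), and ath-miR160a-5p had 107 and 94, a ratio of 0.656 (0.492 to 0.873). Gb_26165, Gb_32864 and Gb_39686 matched ARF6, which acts in flower maturation in Arabidopsis. E-values of these genes in the authors' deposited table were 1.02e-77, 4.42e-49 and 2.88e-06, in that order. Their names ptc-miR167f-5p, vvi-miR167c and bna-miR167d had ratios of 0.678 (0.601 to 0.764), 0.687 (0.609 to 0.775) and 0.701 (0.620 to 0.792). With TMM they were 0.937, 0.950 and 0.969. Gb_18738 (match ARF2) stood under novel_277 alone, which had 5 and 16 reads and passed as higher only with TMM, median of ratios and the total without the most abundant name.

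Among the 12 AP2/ERF genes, names of miR159 and miR319 recurred. Gb_02968 matched PLT1, which maintains the root stem cell niche, and Gb_39627 matched ethylene-responsive transcription factor 12. Each had 10 names, among them pta-miR159a and mtr-miR319a-3p. gma-miR319q, listed for Gb_39627 with 3375 and 2148 reads, was 2.11-fold lower (1.99 to 2.22). Gb_00125 (match TINY, an ERF protein) was listed under 4 miR396 names and novel_28. vvi-miR396b had 61971 green and 101786 yellow reads, a ratio of 1.23 (1.21 to 1.24), and vvi-miR396a had 22788 and 49996, a ratio of 1.64 (1.61 to 1.66). novel_28, with 303 and 178 reads, was 2.28-fold lower (1.89 to 2.76). By gene, 3 of 9 AP2/ERF genes with enough reads had a lower name and none a higher one, beside 28.6% and 17.3% of all target genes. With TMM none had a lower name and 5 had a higher one, beside 18.1% and 31.4%.

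Among names with enough reads, the lowest ratio belonged to a miRNA name listed for a TCP gene. TCP proteins control cell division in the leaf blade, and miR319 is known for targeting some of them. Gb_07891, which matched PCF6 of rice, was listed under miR408 as well as miR319 names. gma-miR408d had 1029 green and 27 yellow reads and was 51.1-fold lower (34.9 to 77.9), and osa-miR408-3p, with 135 and 6, was 30.2-fold lower (13.5 to 83.6). Its miR319 names, ptc-miR319e with 324 and 313 reads and pta-miR319 with 123 and 113, had ratios of 0.721 (0.615 to 0.845) and 0.686 (0.526 to 0.892). Gb_40698 (match TCP20) stood under novel_94, with 491 and 267 reads and 2.46-fold lower (2.12 to 2.87), a call lost with TMM and median of ratios. Gb_18221, which matched TCP4, had only osa-miR319a-3p.2-3p, with 1 green and 0 yellow reads.

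The GRAS and NF-Y classes had few reads. Gb_28344 matched scarecrow-like protein 6, the kind of GRAS protein that miR171 targets in Arabidopsis, and had 15 names. smo-miR171b, with 145 and 85 reads, was 2.29-fold lower (1.74 to 3.02) when scaled by the total only. Equal counts of 4 and 18 stood for ptc-miR171c, vvi-miR171f and sly-miR171d, a ratio of 3.36 (1.11 to 13.6). htu-miR171a and osa-miR171b had 109 reads in each library, a ratio of 0.746 (0.567 to 0.982) that rose above 1 with TMM. NF-YA proteins are subunits of the complex that binds CCAAT boxes. The 8 miR169 names of Gb_14803 and Gb_31427 had at most 1 read in green and 2 in yellow leaves. Gb_31427 was also listed under novel_150, with 5 and 32 reads and a ratio of 4.78 (1.85 to 15.7). That name was higher when scaled by the total, a call that the other scalings cannot undo.

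bHLH genes were listed mostly under single names, 16 of 22 having only 1. Of the 9 with enough reads, 5 had a lower and 1 a higher name, beside 28.6% and 17.3% of all target genes, and with TMM 4 had a lower and 2 a higher one, beside 18.1% and 31.4%. Gb_41424 matched ILR3, a regulator of iron response, and was listed under rgl-miR5139, with 296 and 38 reads and 10.4-fold lower (7.43 to 15.05), and cpa-miR8155, with 281 and 35 and 10.8-fold lower (7.555 to 15.8). ppt-miR1030a, with 48 and 17 reads, was 3.78-fold lower (2.14 to 7.02) when scaled by the total, stayed lower under each scaling with a ratio of 0.365 under TMM, and was listed for 5 genes. They were Gb_07156 (match PIF3, a partner of phytochrome in light signalling), Gb_06182 (bHLH140), Gb_07446 (bHLH82), Gb_05176 (WRKY14) and Gb_28594 (trihelix GT-2). The match of Gb_28594 had an E-value of 4.71e-06 in the authors' deposited table. novel_132, listed for Gb_07156, Gb_06182, Gb_28594 and Gb_04854, had 103 and 50 reads and was 2.76-fold lower (1.95 to 3.95), a call lost with TMM. Gb_20754 (match bHLH30) was listed under novel_213, the name already given for Gb_08575. Gb_02586, which matched BIM1 of brassinosteroid signalling with an E-value of 1.62e-08 in the authors' deposited table, had 22 names, of miR159, miR319 and novel_68. Gb_30715 (match bHLH130) shared 6 names of miR166 with the HD-ZIP genes.

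Called names also stood in smaller classes. The trihelix gene Gb_26181 (match GT-1, which binds light-responsive promoters) stood under 5 miR397 names, of which ath-miR397a stood at 35 green and 2 yellow reads, 23.45-fold lower (6.025 to 201). The 2 yellow reads lie under the limit of 1.07 CPM for that library. The MADS-box gene Gb_05359 stood under ppe-miR1511-3p, with 283 and 38 reads and 9.98-fold lower (7.10 to 14.4). The match of this gene had an E-value of 1.72e-09 in the authors' deposited table. The WRKY gene Gb_23334 (match WRKY42) was listed under 5 miR172 names, and ath-miR172a, with 60 and 23 reads, was 3.50-fold lower (2.13 to 5.925). The heat stress factor gene Gb_16343 stood under novel_330, with 2 green and 61 yellow reads and a ratio of 22.8 (6.04 to 192), the highest among these names. The 2 green reads lie under the limit of 1.44 CPM. The GATA gene Gb_16806 stood under novel_343, with 24 and 11 reads and 2.92-fold lower (1.38 to 6.61), a call lost with TMM.

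Homeobox genes outside HD-ZIP had no called name when scaled by the total, out of 4 with enough reads. Of all names 24.8% were lower and 12.1% higher. These genes matched KNOX and WUSCHEL-related proteins, some of which maintain meristems. Gb_20543 and Gb_27697, both matching WUSCHEL-related homeobox 8, stood under novel_60, with 789 and 854 reads and a ratio of 0.808 (0.732 to 0.891). Gb_22870, with the same match, stood under novel_43, with 4909 and 3603 reads and a ratio of 0.548 (0.524 to 0.572). None of the 5 bZIP and 2 B3 genes had a name with 20 reads.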

How the data were processed

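The authors deposited raw read counts for each miRNA name, per the file headers, in a column for each library. Per the submitters' processing notes the aligner Bowtie was used, its version not stated. Build, miRBase release, counting rule and prediction tool were not given in the sources used here, and no miRNA or gene sequence was used. Members were the target genes whose description, up to the organism tag, held any of 13 keywords in any case. They were sorted into classes by keyword, and the 30 genes without a class word were placed by the known family of the matched protein after their values were seen. The members, the classes and the size rule were chosen with earlier results of these data known. Genes and miRNAs were named by a rule that took, per class, the names with the most reads, the called names with the lowest and highest ratios and the genes with the most names, together with the most extreme names over all classes. Others in the text were chosen after their values were seen. Intervals were exact binomial (Clopper-Pearson, scipy 1.17.1), converted to ratios, and the calculation was tested on simulated data. A count of 0 was given a floor of 3 counts. Scaling alternatives used edgeR 4.0.16 and DESeq2 1.42.0. The alternatives were 3 other scalings, no minimum or 100 reads, a 1.5-fold limit, equal counts taken once, keywords at the start of a word, and, added after seeing the data, leaving out miR858 names.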

Additional observations from a re-analysis of the deposited data

How the results depend on the processing

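With TMM, 18 of the names listed for transcription factor targets were lower and 17 higher, in place of 31 and 8, and 27 of the genes had a lower and 23 a higher name, in place of 46 and 10. With median of ratios the names were 20 and 17 and the genes 29 and 23. Leaving the most abundant name out of the total gave 13 higher names and 21 genes with a higher name. These scalings raise every ratio by a common factor. A minimum of 100 reads, which drops names, left 2 higher names and 5 genes. A 1.5-fold limit, which admits more, gave 16 higher names and 20 genes. Counts of lower names and of genes under them stayed within 1.5 times of the reported ones under the other alternatives, among them 33 genes without the miR858 names, an alternative added after seeing the data. No called ratio of a named miRNA passed to the other side of 1 under the 3 other scalings, but none could have. Those scalings raise each log2 ratio by at most 0.47, which is less than the 2-fold limit of a call. No paired analysis was possible because each leaf type has 1 library, which also prevents leaving out a replicate. Depth limits 63 of the 172 names, which had fewer than 20 reads.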
